A study of Mus musculus with 272 samples.

Results

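The genes described here are the numbered Eif1ad copies and the Eif4a3l copies of the mouse, 10 gene symbols of the 15771 with distinct values. They were taken by symbol, as every row named Eif1ad followed by a number (Eif1ad2, Eif1ad3, Eif1ad4, Eif1ad6, Eif1ad7, Eif1ad8, Eif1ad16 and Eif1ad19) and every row named Eif4a3l (Eif4a3l1 and Eif4a3l2). None of the 10 had values identical to another row, and all 10 were kept. They were chosen by name, and selected on their high CPM in the 2-cell transcriptomes, which was already known, so their levels by stage are given as a description and are not tested. Eif1ad and Eif4a3, the single genes whose names the copies carry, are called the parents below. For the numbered Eif1ad genes no sequence was matched here, so the words copy and parent rest on the name alone in that family.

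Mouse oocytes and embryos were sampled at 8 stages, the germinal vesicle (GV) oocyte, the metaphase II (MII) oocyte, the zygote, the 2-cell, 4-cell and 8-cell embryo, the morula and the blastocyst. At each stage, 4 pools of 20 oocytes or embryos gave transcriptome libraries, and lysates of about 100 gave 3 sucrose gradients, A to C, each cut into 10 fractions that were sequenced singly. Every group of fraction libraries shares lysis with cycloheximide, which holds ribosomes on transcripts. No strain, genotype or treatment of animals is given by the labels, and nothing says that the pools or gradients of a stage came from separate collections, so p-values measure only the spread between these samples. In such a gradient a transcript that carries more ribosomes sediments further. Fractions 6 to 10 are called the heavy side and fractions 1 to 5 the light side. Levels are in CPM, the reads of a gene scaled to the total of its library.

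Eukaryotic initiation factor 1A helps the small ribosomal subunit scan a transcript and select the start codon, and Eif1ad encodes a protein with a domain of the eIF1A type. Eif4a3 encodes a DEAD-box RNA helicase of the exon junction complex, which marks spliced transcripts and takes part in nonsense-mediated decay. When the mouse embryonic genome is activated in the late zygote and the 2-cell embryo, multicopy gene families are transcribed for a short time, and transcripts stored in the oocyte are degraded.

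The 2-cell transcriptomes held 11.2 to 14.9 M reads and the 2-cell fractions 0.337 to 17.8 M, with every library of fractions 2 to 10 at 5.52 M or more. The stages had the markers of their labels. Summed CPM of 5 markers of the 2-cell embryo (Zscan4d, Zscan4c, Usp17la, Tcstv3 and Zfp352) ran from 2061 to 2859 in 2-cell libraries and was at most 84.8 in any other library. Summed CPM of 4 oocyte markers was at least 11868 in oocyte libraries, and that of 5 blastocyst markers at least 2128 in blastocysts. Of 7 markers of cumulus and granulosa cells 2 were measured (Fshr and Cyp19a1). Their summed CPM was 37.5 to 68.9 in GV, MII and zygote libraries, 5.6 to 12.9 in 2-cell libraries and at most 0.227 from the 4-cell stage on, and their part in the results was not tested. In bulk samples such as these, fewer cells that carry a transcript and less of it per cell cannot be told apart.

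Sequences bear on how reads of the copies can be told apart. Of the 10 symbols, 2 matched RefSeq's gene table, Eif4a3l1 and Eif4a3l2, and the 8 Eif1ad copies are named only. Through RefSeq's synonyms both matched a transcript of GENCODE M21. The transcript of Eif4a3 has 12 exons, that of Eif4a3l1 has 2 and that of Eif4a3l2 has 1, and all 3 have a coding part of 411 codons. Over 1233 coding bases Eif4a3l1 differed from Eif4a3 at 47 and Eif4a3l2 at 40, while the copies differed from each other at 18, an identity of 98.5%. Of the 1084 stretches of 150 bases (the length of a sequencing read) in the coding part of Eif4a3l1, 134 occur unchanged in Eif4a3l2 and 0 in Eif4a3. Of those of Eif4a3l2, 2 occur in Eif4a3. How reads that fit several copies were counted is not given in the sources used here, so the split of reads between 1 copy and another is uncertain, and the sum of each family is given beside its members. The first 120 coding bases are shown to let the copies be compared, with capitals at bases that differ from Eif4a3.
Eif4a3: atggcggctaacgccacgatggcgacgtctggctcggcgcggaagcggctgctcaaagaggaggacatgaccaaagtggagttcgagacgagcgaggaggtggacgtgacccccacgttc
Eif4a3l1: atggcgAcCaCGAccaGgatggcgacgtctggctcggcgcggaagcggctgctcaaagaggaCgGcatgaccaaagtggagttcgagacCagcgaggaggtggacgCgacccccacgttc
Eif4a3l2: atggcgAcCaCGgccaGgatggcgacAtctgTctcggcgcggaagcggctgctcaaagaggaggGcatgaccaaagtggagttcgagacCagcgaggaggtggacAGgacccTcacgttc

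The 250 bases before the start of Eif4a3l1 and of Eif4a3 are shown because copy and parent had different patterns by stage. They come from RefSeq (GRCm38.p6), at chr6:136327289-136327538 on the plus strand for Eif4a3l1 and chr11:119300044-119300293 on the minus strand for Eif4a3. Capitals mark TAATCC on either strand, the core that OTX and OBOX homeodomain proteins are known to bind. Only 1 of the 10 copies, Eif4a3l1, matched a promoter, so those of the others, Eif4a3l2 among them, were not examined. In the promoter of Eif4a3l1 this motif was found 2 times, as neighbouring sites on opposite strands, and in that of Eif4a3 0 times. The promoter of the other parent, Eif1ad, holds it 1 time. Of all 32851 promoters of the same length, 6.25% hold it at least 1 time. Whether the motif has a part in the pattern by stage was not tested. The promoter of Eif4a3 holds 36 CG pairs and that of Eif4a3l1 holds 2.
Eif4a3l1: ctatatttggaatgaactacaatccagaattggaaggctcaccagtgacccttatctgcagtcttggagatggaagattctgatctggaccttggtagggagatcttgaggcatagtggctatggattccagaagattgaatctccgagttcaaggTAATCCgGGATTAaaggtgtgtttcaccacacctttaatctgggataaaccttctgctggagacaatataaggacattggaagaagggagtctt
Eif4a3: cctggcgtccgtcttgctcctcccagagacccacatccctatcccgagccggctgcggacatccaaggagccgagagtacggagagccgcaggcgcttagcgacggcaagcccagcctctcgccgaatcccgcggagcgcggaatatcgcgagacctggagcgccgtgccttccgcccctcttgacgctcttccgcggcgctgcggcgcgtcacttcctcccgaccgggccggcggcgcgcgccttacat

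The Eif1ad copies were all but absent from oocyte and zygote transcriptomes and were high in 2-cell embryos. Their sum was 3565, 4915, 5113 and 5090 CPM in the 2-cell libraries E, F, G and H, a mean of 4671 ± 743 (SD, n = 4). In the 4 zygote libraries it was 0, 0.0948, 0 and 0.111 CPM, from 4 reads in all, and in each of the 4 MII libraries 0. Set against 3 reads per zygote library, the 2-cell mean was at least 29565-fold higher. In the 4-cell libraries A to D the sum was 10.4, 35.7, 16.2 and 8.91 CPM, a mean of 17.8 ± 12.4 (SD, n = 4), and 262-fold lower than in 2-cell embryos. No library of any other stage came near the 2-cell values.

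The Eif4a3l copies had the same course at other levels. Their sum was 669, 390, 424 and 398 CPM in 2-cell libraries E to H (mean 470 ± 133, SD, n = 4). Zygote libraries had 0.197, 0.474, 0.35 and 0.445 CPM, from 28 reads in all, and the 2-cell mean was 1283-fold that of the zygote. The 4-cell libraries A to D had 4.13, 18.2, 6.43 and 1.47 CPM, and the 2-cell mean was 62.3-fold that of the 4-cell embryo. Unlike the Eif1ad copies, these 2 genes had some reads in every MII and every zygote library when summed, though 0 in 1 GV library.

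Library E stood apart from the other 2-cell transcriptomes, with a Pearson r of log2(CPM + 1) over all genes of 0.976 against each of the other 3, which had 0.981 to 0.982 among themselves. Without it the mean of the summed Eif1ad copies was 5039 ± 108 CPM (SD, n = 3) and that of the summed Eif4a3l copies 404 ± 18 CPM (SD, n = 3). At the 4-cell stage library B was the highest for both sums, and without it the means were 11.9 ± 3.87 and 4.01 ± 2.48 CPM (SD, n = 3).

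**Figure D1:**
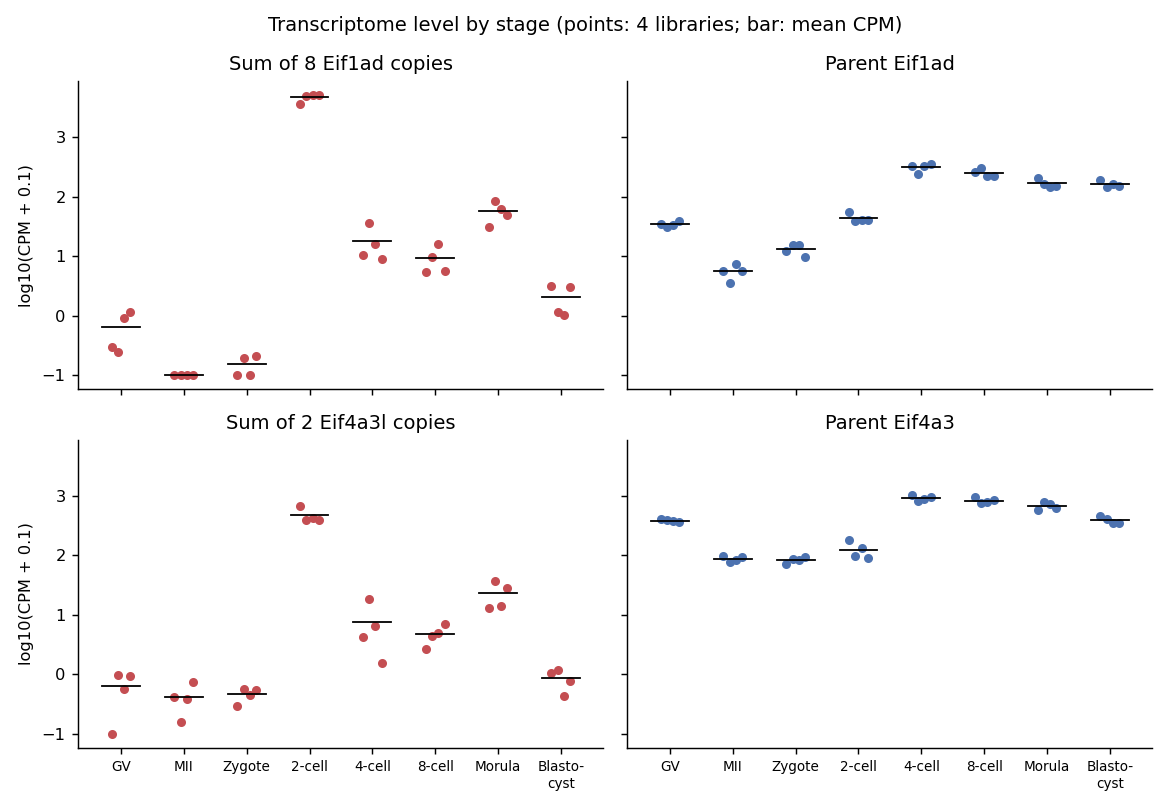
Transcriptome level of the summed Eif1ad copies, the summed Eif4a3l copies and the parents Eif1ad and Eif4a3, as log10(CPM + 0.1) (y axis) at each of 8 stages (x axis), with 4 libraries per stage as points and the mean CPM as a bar. Both sums are highest in 2-cell embryos and next highest in morulae, and both parents are higher in every library from the 4-cell stage on than in any 2-cell library.

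In the order of their means, the stages of the summed Eif1ad copies were 2-cell, morula (57.3 ± 22.8 CPM, SD, n = 4), 4-cell, 8-cell (9.18 ± 5.0), blastocyst (1.98 ± 1.14), GV (0.556 ± 0.453), zygote (0.0515 ± 0.0598) and MII. Morula and 4-cell libraries overlapped only through 4-cell library B, 4-cell and 8-cell libraries overlapped, and so did blastocyst and GV. The 2-cell libraries lay apart from morulae, and 8-cell libraries from blastocysts. The order was alike for the summed Eif4a3l copies down to the GV oocyte, with 22.8 ± 11.3 CPM in morulae, 7.55 ± 7.37 at the 4-cell stage, 4.63 ± 1.75 at the 8-cell stage and 0.753 ± 0.324 in blastocysts (SD, n = 4). The blastocyst, GV, zygote and MII libraries of that sum overlapped.

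Each of the 8 Eif1ad copies contributed. Eif1ad7 had 1163, 1896, 1794 and 1791 CPM in 2-cell libraries E to H and 0 reads in every zygote and MII library, at least 10513-fold higher than in the zygote. Eif1ad3 had 758, 1088, 1141 and 1146 CPM and Eif1ad8 had 679, 776, 962 and 857 CPM. The 2-cell means of the other 5 were 389 ± 71.7 CPM for Eif1ad6, 253 ± 18.9 for Eif1ad4, 219 ± 42.5 for Eif1ad16, 169 ± 19.3 for Eif1ad19 and 128 ± 17.8 for Eif1ad2 (SD, n = 4). At least 1639 reads stood behind each of these values in each 2-cell library. Against 3 reads per zygote library, the 2-cell means of the 8 were at least 808-fold (Eif1ad2) to 10513-fold (Eif1ad7) higher. Since CPM takes no account of length and the lengths of these 8 transcripts were not used here, their levels do not rank the copies.

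The make-up of the sum was nearly the same in the 4 libraries. Eif1ad7 gave 32.6 to 38.6% of it, Eif1ad3 gave 21.3 to 22.5%, Eif1ad8 gave 15.8 to 19%, and Eif1ad2 as the smallest gave 2.37 to 2.97%. Eif4a3l1 and Eif4a3l2 had nearly equal CPM. Eif4a3l1 had 329, 200.2, 202 and 194 CPM and Eif4a3l2 had 339, 190, 222 and 203 CPM in libraries E to H, a ratio of 0.973 ± 0.061 (SD, n = 4). Library E was the highest of the 4 for both.

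The parents had another course. Eif1ad was 12.3, 15.2, 15.1 and 9.5 CPM in the zygote libraries A to D and 54.7, 38.8, 39.9 and 41.2 CPM in the 2-cell libraries, which do not overlap. It rose from zygote to 2-cell by 1.68 on the log2(CPM + 1) scale (SE 0.18, limma adjusted p = 2.9e-10). It rose again to the 4-cell stage, where the libraries had 322, 238, 330.1 and 350.2 CPM, by 2.80 (SE 0.18, limma adjusted p = 1.1e-16). Eif4a3 had 84 ± 9.02 CPM in zygotes, 123 ± 41.2 in 2-cell and 920 ± 87 in 4-cell embryos (SD, n = 4). Its difference from zygote to 2-cell was 0.50 (SE 0.15, limma adjusted p = 0.0047), under the change of 1 that a call needed, and it rose from 2-cell to 4-cell by 2.94 (SE 0.15, limma adjusted p = 3.4e-19). A gene was called here and below at an adjusted p under 0.05 and a change of at least 1. Of the 14642 genes tested, 25.2% were called higher and 8.71% lower from zygote to 2-cell, and 31.8% higher and 32.9% lower from 2-cell to 4-cell. With quantile normalization the share of higher calls from zygote to 2-cell was 46.4% in place of 74.3%, and the median of all genes moved from 0.37 to -0.08. From 2-cell to 4-cell that median moved from 0.02 to 0.22. Both parents kept their side of the threshold under every alternative tried in these 2 comparisons.

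Within each 2-cell library the reads of the copies can be set against those of the parent as a ratio of CPM, with no correction for length. The summed Eif1ad copies had 65.2, 127, 128 and 123 times the CPM of Eif1ad in libraries E to H. In 4-cell libraries the ratio was 0.0643 ± 0.0582 and in morulae 0.359 ± 0.163 (SD, n = 4). For the summed Eif4a3l copies against Eif4a3 it was 3.74, 4.08, 3.24 and 4.49 in 2-cell libraries, 0.00877 ± 0.00927 in 4-cell embryos and 0.0332 ± 0.0143 in morulae. In the 4-cell embryo the ratio had turned over for both families, with every library below 1.

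The genes of the same machinery give the setting. Of 8 genes of the eIF1, eIF1A and eIF4A family, 3 were called higher from zygote to 2-cell (Eif1a by 6.53, Eif1ad, and Eif1ax by 1.25) and 1 lower (Eif4a2, the helicase paralog of eIF4A1, by -1.29), with a median of 0.43 beside 0.37 for all genes. Of 12 scanning and initiation partners 3 were called higher and 2 lower (median 0.30). Among all genes 25.2% were called higher and 8.71% lower. Of 14 genes of the exon junction complex and nonsense-mediated decay 4 were called higher, among them Rbm8a, a core subunit of the exon junction complex, by 2.86, and 4 lower, among them Upf1, the helicase of nonsense-mediated decay, by -1.16 (median 0.41). With quantile normalization the last list had 1 higher and 4 lower. From 2-cell to 4-cell the counts were 5 higher and 1 lower of 8, 8 and 1 of 12 and 11 and 0 of 14, with medians of 1.22, 2.35 and 1.40 beside 0.02 for all genes. In that comparison 31.8% of all genes were called higher and 32.9% lower. Smg5, a factor of nonsense-mediated decay, rose by 4.42, and Eif5b, the factor of subunit joining, by 3.26. These lists were chosen with earlier results known, and no member of a list that was called changed sign under any alternative tried.

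Outside the copies, the 5 genes whose level was most like that of the summed Eif1ad copies over the 32 transcriptome libraries, by Pearson's r of log2(CPM + 1), were Gm8016 (0.978), Zfp54 (0.971), 4930579F01Rik (0.953), Gm6978 (0.953) and Phf11a (0.952). For the summed Eif4a3l copies they were Gm8016 (0.970), 4930579F01Rik (0.943), Zfp54 (0.942), Gm4340 (0.940) and Gm5576 (0.939). The 2 sums had an r of 0.985 with each other. The parents had lower values, 0.30 for Eif1ad with its copies and 0.0138 for Eif4a3 with its copies. The libraries share their stages, and a gene with 1 high stage will have a high r with any other gene high at that stage. Gm8016, first for both sums, had 51.2 CPM in 2-cell embryos, 4.09 in morulae and 0 in oocytes and zygotes.

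Where the transcripts lay in the gradient was not used to pick the copies and can be tested. At the 2-cell stage all 10 copies had a higher mean CPM on the heavy than on the light side in each of 3 gradients. The share of all genes that did so was not counted, so this count is a description only. The summed Eif1ad copies had 1263, 703 and 1397 CPM on the heavy side of gradients A, B and C and 97, 91.6 and 148.5 CPM on the light side. The lowest heavy value was above the highest light value, and the mean difference was 3.28 ± 0.39 on the log2(CPM + 1) scale (SD, n = 3). The summed Eif4a3l copies had 1350, 919 and 1179 CPM on the heavy side and 214, 315 and 182 CPM on the light side, a difference of 2.29 ± 0.65 (SD, n = 3), and these did not overlap either. The side means of 9 of 10 copies did not overlap, where 11.3% of all 9889 genes tested had every heavy value above every light one. The exception was Eif1ad4, with 94.15, 30.15 and 103.8 CPM on the heavy and 8.24, 5.98 and 33.5 CPM on the light side.

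The test across all genes called 4 of the 10 copies heavier, where 0.809% of all genes were called heavier and 1.09% lighter. These were Eif1ad7, with a difference of 4.43 (SE 0.67, limma adjusted p = 0.018), Eif1ad3 with 3.11 (SE 0.62, adjusted p = 0.045), Eif4a3l2 with 2.29 (SE 0.35, adjusted p = 0.019) and Eif4a3l1 with 2.29 (SE 0.38, adjusted p = 0.025). Eif1ad8 had 3.91 (adjusted p = 0.054) and Eif1ad16 had 4.13 (adjusted p = 0.10). The other 4 had 2.22 to 2.96, with adjusted p of 0.096 to 0.33. The median of the 10 copies was 2.67 beside -0.30 for all genes. With each gradient as a block, Eif1ad3 (adjusted p = 0.058) and Eif4a3l1 (adjusted p = 0.051) were no longer called. Without gradient A, B or C, and with no filter on low values, none of the 4 was called (adjusted p of 0.064 to 0.19), and all genes together then gave 0 calls with limma (2066 to 2519 at an unadjusted p under 0.05). The differences of the 10 copies were positive under all 12 alternatives. Of these 12, 8 called Eif1ad7, 8 Eif4a3l2, 7 Eif1ad8, 6 Eif1ad3 and 5 Eif4a3l1. The median of all genes moved from -0.30 to -0.04 with quantile normalization and to 0.20 with edgeR, and the copies lay above it in each. The edgeR fit also left out fraction 7 of gradient B.

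**Figure D2:**
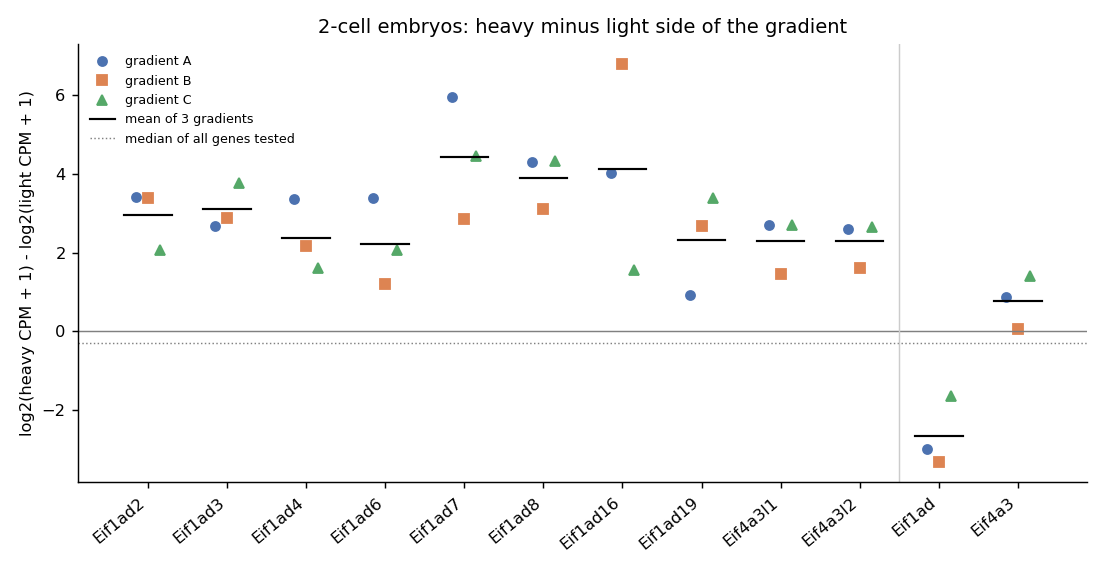
Heavy minus light difference in 2-cell embryos, as log2(heavy mean CPM + 1) minus log2(light mean CPM + 1) (y axis), for the 10 copies and the parents Eif1ad and Eif4a3 (x axis), with a point per gradient and the mean as a bar; the dotted line is the median of all genes tested. All 30 points of the copies lie above 0, all 3 points of Eif1ad lie below 0, and those of Eif4a3 lie above 0. The share of all genes with all 3 points above 0 was not counted.

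Along the single fractions the CPM of the copies was highest at the bottom of the gradient. The mean of the summed Eif1ad copies over the 3 gradients was 153 CPM in fraction 1, 50.9 in fraction 3, 168 in fraction 5, 797 in fraction 7, 1509 in fraction 9 and 2144 in fraction 10. In fraction 10 the gradients A, B and C had 2379, 1829 and 2225 CPM, close together, while in fraction 8 they had 572, 212 and 2013 CPM. The mean of the summed Eif4a3l copies was 98 CPM in fraction 1, 310 in fraction 3, 209 in fraction 5, 901 in fraction 7, 1114 in fraction 9 and 2710 in fraction 10. Here fraction 10 had 4334, 838 and 2958 CPM, and gradient B was the low one. In that library of 10.8 M reads Eif4a3l1 had 0.356 CPM, and nearly all of the sum was Eif4a3l2. In gradients A and C Eif4a3l1 had 1907 and 1338 CPM in fraction 10.

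Of the 30 profiles (10 copies in 3 gradients), 20 were highest in fraction 10, 7 in fraction 9, 1 in fraction 8 and 2 in fraction 7. The copies share their gradients, so the profiles are not independent, and the same count was not made for all genes. Of a copy's CPM added over the 10 fractions, a median of 88.4% (66.7 to 99.9%) lay in fractions 6 to 10 and 62% (22.9 to 99.1%) in fractions 9 and 10. Over all 9889 genes tested the medians were 44% and 13.5%. These were taken after each gene's share had been averaged over the 3 gradients, and those of the copies over the 30 single profiles. Each fraction is scaled to its own total, so these shares weigh every fraction alike and are not shares of RNA.

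**Figure D3:**
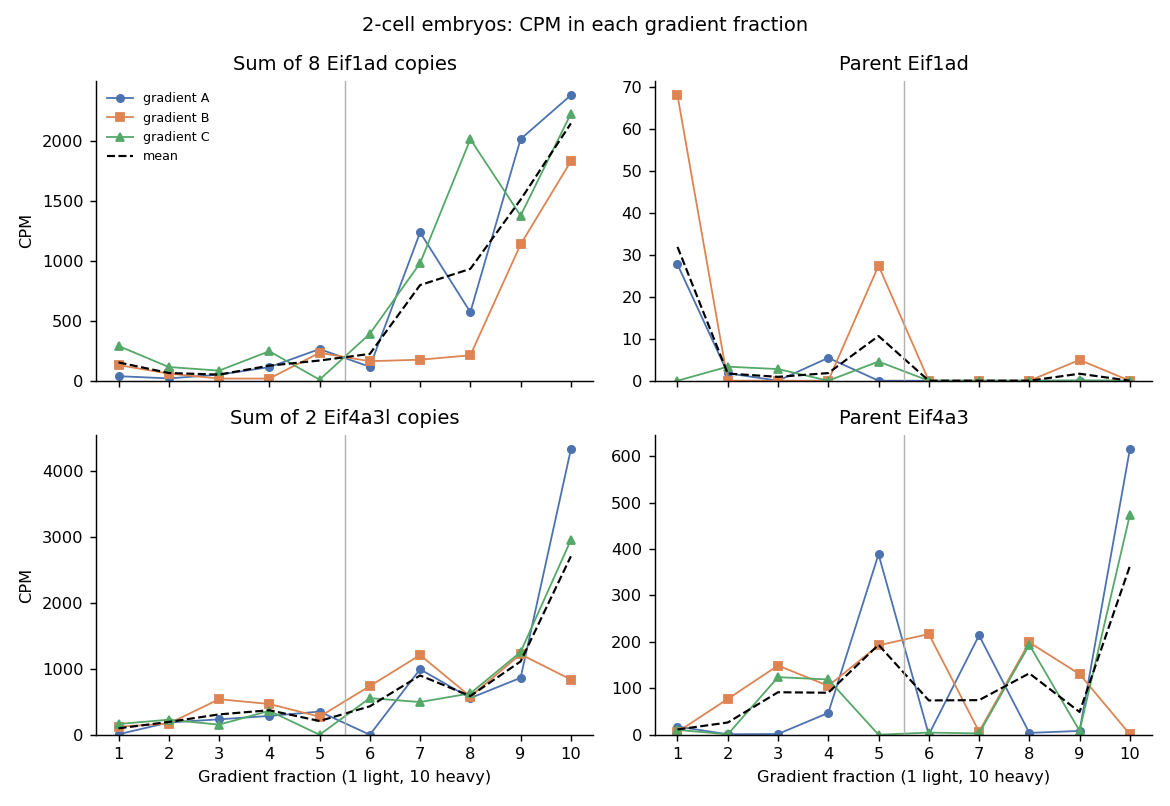
CPM (y axis) in fractions 1 to 10 (x axis) of the 2-cell gradients A, B and C, with the mean as a dashed line and a grey line between the light and heavy side, for the sums of the copies and for the parents; each panel has its own scale. Both sums are highest at fraction 10 on average (2144 and 2710 CPM), Eif1ad is highest in fraction 1 on average, from 45 reads, and Eif4a3 moves up and down between neighbouring fractions.

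Single values varied widely. Of 300 fraction values of the copies at the 2-cell stage, 16 had 0 reads. All 16 were on the light side, most of them in gradient B or in fraction 1, whose libraries of gradients A and B had 0.337 and 0.427 M reads. Low values also stood in deep libraries. Eif4a3l2 had 2 reads in fraction 6 of gradient A, a library of 11.95 M reads, and the sum of both Eif4a3l copies was 0.728 CPM there against 740 and 557 CPM in gradients B and C. In fraction 5 of gradient C, with 13.4 M reads, that sum was 0.786 CPM, the summed Eif1ad copies 8.72 CPM and Eif4a3 0.143 CPM, against 275 to 352, 233 to 264 and 192.5 to 389 CPM in gradients A and B.

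In the same 2-cell gradients Eif1ad was higher on the light side, unlike the copies that carry its name. Eif4a3 was higher on the heavy side, as its copies were. Eif1ad had 0, 0.991 and 0.0109 CPM on the heavy side of gradients A, B and C and 7, 19.1 and 2.14 CPM on the light side, with no overlap. All 3 gradients had 0 reads of it in fractions 6, 7, 8 and 10, and fraction 9 held 70 reads over the 3 gradients. Its highest light-side values were 27.7 and 68.1 CPM in fraction 1 of gradients A and B, from 11 and 34 reads in libraries under 0.5 M reads, and 27.5 CPM in fraction 5 of gradient B, from 169 reads. Without the 3 libraries of fraction 1 its light side had 1.81, 6.87 and 2.68 CPM, still above every heavy value, and a difference of -1.78 (limma adjusted p = 0.18). The heavy minus light difference was -2.66 (SE 0.92, limma adjusted p = 0.13) and was not called. It was called with all 8 stages in the fit (adjusted p = 0.031). Eif4a3 had 168, 111 and 137 CPM on the heavy and 91.2, 106 and 51 CPM on the light side, with no overlap. Its highest fraction was 10 in gradients A and C and 6 in gradient B. It was heavier by 0.78 (SE 0.50, limma adjusted p = 0.40) and was not called. Without fraction 1 it was lower on the heavy side in gradient B (110.9 against 131 CPM), so that 2 of 3 gradients were heavier. The difference between a copy and its parent was not tested.

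Of the listed genes, 0 of 8 in the eIF1, eIF1A and eIF4A family were called heavier or lighter at the 2-cell stage (median 0.74). Among all genes 0.809% were called heavier and 1.09% lighter. Of 11 measured scanning and initiation partners, 2 were called heavier (median 0.62), namely Eif4g2, a relative of the scaffold eIF4G, by 3.83 (limma adjusted p = 0.026) and Eif5, which triggers GTP hydrolysis at the start codon, by 3.14 (adjusted p = 0.012). Of 12 measured genes of the exon junction complex and nonsense-mediated decay 0 were called (median 0.59). Eif1a, which encodes eIF1A itself, had 4.91 (adjusted p = 0.055).

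The 2 families differed in how the fraction CPM compared with that of the 2-cell transcriptome. For the summed Eif1ad copies the heavy-side CPM was 0.24 of the transcriptome mean, 0.151 to 0.299 over the 3 gradients. For the summed Eif4a3l copies it was 2.45 times the transcriptome mean, 1.95 to 2.87 over the gradients. Each of the 8 Eif1ad copies had a ratio from 0.211 (Eif1ad8) to 0.331 (Eif1ad6), and Eif4a3l1 and Eif4a3l2 had 2.32 and 2.57. The light-side CPM was 0.0241 of the transcriptome mean for the summed Eif1ad copies and 0.504 for the summed Eif4a3l copies. The libraries were scaled separately, so the ratios compare places in 2 kinds of library and not amounts of RNA, and their difference was not tested.

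After the 2-cell stage the summed copies were low but still detected, and higher again in morulae. In blastocysts Eif1ad4 and Eif1ad19 had 0 reads in all 4 libraries and Eif1ad16 had 1 read. The summed Eif1ad copies had 5.37, 9.68, 16.1 and 5.6 CPM in the 8-cell libraries A to D, 31.1, 85.2, 63.1 and 49.8 CPM in morulae and 3, 1.06, 0.918 and 2.93 CPM in blastocysts. Every morula library was above every 8-cell and every blastocyst library, and the morula mean was 6.24-fold that of the 8-cell embryo and 29-fold that of the blastocyst. It was 81.5-fold below that of the 2-cell embryo. The summed Eif4a3l copies had 2.6, 4.33, 4.74 and 6.87 CPM in 8-cell embryos, 13, 36.2, 14.1 and 28.1 CPM in morulae and 0.943, 1.06, 0.334 and 0.671 CPM in blastocysts, again with no overlap.

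Most of the morula level came from 4 of the copies. Eif1ad7 had 3.65, 4.06, 7.11 and 1.56 CPM in 8-cell libraries and 20.3, 32.2, 27.3 and 28.9 CPM in morulae. Eif1ad3 had 1.11, 3.65, 4.74 and 1.73 CPM and then 6.48, 42.1, 30.7 and 15.4 CPM. Both were apart from the 8-cell libraries in all 4 morula libraries. The other 6 Eif1ad copies had morula means of 0.467 (Eif1ad19) to 2.68 CPM (Eif1ad8). Of these, Eif1ad2 with 0.348 to 2.30 CPM in morulae against at most 0.129 CPM and Eif1ad19 with 0.304 to 0.647 against at most 0.173 CPM were apart from the 8-cell libraries too. So 5 of the 10 copies had every morula library above every 8-cell library, and all 10 had every morula library above every blastocyst library. The shares of all genes that did so were not counted, so these counts are a description only. Some of them rest on few reads. Eif1ad4 had 2 reads in its lowest morula library and 0 in every blastocyst library. Eif1ad2 and Eif1ad19 had at most 3 reads in any 8-cell library. Eif1ad3 and Eif1ad7 together gave 53.9 to 60.7% of the sum in 2-cell libraries and 86.2 to 91.8% in morulae, shares that do not overlap. In the 4-cell libraries A to D they gave 44.6, 85.4, 56.4 and 59.7%, so library B, the highest in CPM, was also the one with the highest share. Eif4a3l1 had 8.81, 23.8, 7.86 and 18.4 CPM and Eif4a3l2 had 4.15, 12.4, 6.22 and 9.74 CPM in morulae. Their ratio was 1.8 ± 0.372 there against 0.973 ± 0.061 in 2-cell embryos (SD, n = 4), and higher in each morula library than in each 2-cell library. Eif4a3l1 was among the 5 apart from the 8-cell stage and Eif4a3l2 was not, with 4.15 CPM as its lowest morula value and 4.21 as its highest 8-cell value. The parents had lower means in morulae, with Eif1ad at 251 ± 38.2 CPM in 8-cell embryos and 167 ± 29 in morulae and Eif4a3 at 830 ± 81.2 and 678 ± 87.3 (SD, n = 4).

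**Figure D4:**
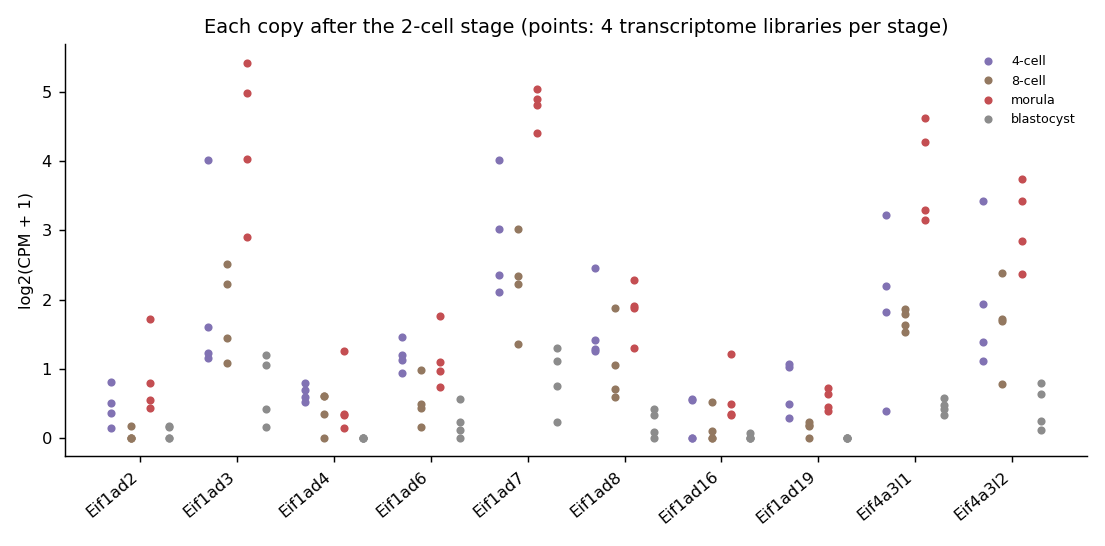
Level of each of the 10 copies as log2(CPM + 1) (y axis) in the 4 transcriptome libraries of the 4-cell, 8-cell, morula and blastocyst stage (colours). All 10 copies are higher in every morula library than in every blastocyst library, Eif1ad3, Eif1ad7, Eif4a3l1 and Eif4a3l2 at 4.15 to 42.1 CPM in morulae and the other 6 Eif1ad copies below 4 CPM.

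In the morula gradients both sums were higher on the heavy side in all 3 gradients, but not every copy was: Eif1ad19 had a lower mean there (0.038 against 0.0973 CPM), and Eif1ad6 and Eif1ad8 were lower in gradient B. The summed Eif4a3l copies had 20.1, 28.6 and 13.8 CPM on the heavy side of gradients A, B and C and 2.36, 8.67 and 4.28 CPM on the light side, with no overlap, and a difference of 1.92 ± 0.64 (SD, n = 3). The summed Eif1ad copies had 20.1, 9.79 and 3.17 CPM and 6.25, 5.27 and 0.00746 CPM, which overlap. Without libraries under 1000000 reads the light value of gradient B was 0.619 CPM and the sides still overlapped. In the test across all genes, added after the levels by stage had been seen, 4 of the 10 copies passed the filter on low values and 0 were called, where 8.26% of all genes were called heavier and 6.43% lighter. Eif4a3l2 had 1.79 (limma adjusted p = 0.10), Eif4a3l1 1.71 (0.092 in the same limma test), Eif1ad7 1.25 and Eif1ad3 0.67. Eif4a3 was called heavier, with 492, 765 and 587 CPM against 174, 281 and 202 CPM, by 1.49 (SE 0.25, limma adjusted p = 0.0046). That call was lost without gradient B (adjusted p = 0.064) or C (adjusted p = 0.073). Eif1ad had -0.24 (limma adjusted p = 0.61). With quantile normalization 44.8% of all morula calls were heavier in place of 56.2%.

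At the 4-cell stage the gradients differed from each other. The summed Eif1ad copies had 0.0175, 53.35 and 21.15 CPM on the heavy side of gradients A, B and C and 6.11, 11.1 and 10.1 CPM on the light side. The summed Eif4a3l copies had 9.17, 24 and 0.358 CPM against 0.0598, 36.5 and 0.0545 CPM, and without libraries under 1000000 reads the heavy value of gradient A was 0.132 CPM. Of the 10 copies 3 passed the filter on low values. With limma 0 of them and 0% of all genes were called, where 1276 genes had an unadjusted p under 0.05, edgeR called 0 and DESeq2 257. Eif1ad had 1.54, 230 and 227 CPM on the heavy and 82.4, 93.4 and 194 CPM on the light side, low on the heavy side in gradient A alone.

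**Figure D5:**
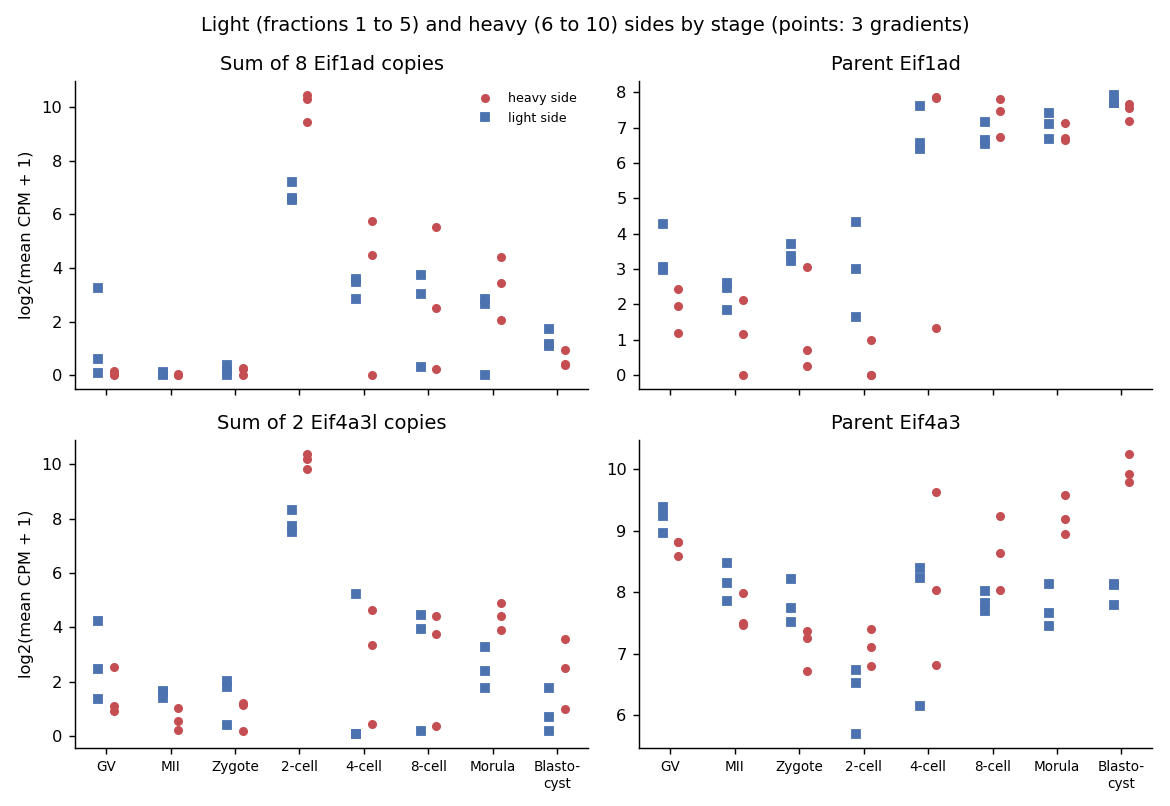
Mean CPM of the light side (fractions 1 to 5) and the heavy side (fractions 6 to 10), as log2(mean CPM + 1) (y axis), in the 3 gradients of each of 8 stages (x axis), for the sums of the copies and for the parents; each panel has its own scale. Heavy values of both sums lie above light values in all 3 gradients of the 2-cell stage, and Eif4a3 is heavier in all 3 gradients of the 2-cell (2 of 3 without libraries under 1000000 reads), 8-cell, morula and blastocyst stage and lighter in all 3 of the GV, MII and zygote stage.

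In GV, MII and zygote gradients the Eif1ad copies were near 0. The summed Eif1ad copies had at most 0.207 CPM on the heavy side of any of these 9 gradients. On the light side of GV gradient B they had 8.51 CPM and the summed Eif4a3l copies 18 CPM, but most of this was 1 read of Eif1ad4, 1 of Eif4a3l1 and 1 of Eif4a3l2 in fraction 1, a library of 23138 reads. Without that library these light means were 0.0958 and 1.42 CPM. The summed Eif4a3l copies had at most 4.77 CPM on any heavy side of these stages. In MII oocytes their light side was the higher one in all 3 gradients, with no overlap. The MII means were 0.541 CPM on the heavy and 1.94 CPM on the light side, the reverse of the 2-cell stage at low levels. In GV oocytes and in zygotes the heavy side of that sum was higher in 1 of 3 gradients. In 8-cell gradients the summed Eif1ad copies had 4.73, 44.8 and 0.189 CPM on the heavy and 12.4, 7.25 and 0.232 CPM on the light side. In blastocyst gradients they had 0.939, 0.352 and 0.312 CPM on the heavy and 2.27, 1.12 and 1.25 CPM on the light side. There the light side was the higher one in all 3 gradients, the reverse of the 2-cell stage, at low levels. The summed Eif4a3l copies had 10.9, 4.61 and 1.01 CPM on the heavy and 0.637, 2.42 and 0.128 CPM on the light side of the blastocyst gradients, the heavy side being higher in all 3.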

How the data were processed

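RNA of 32 oocyte or embryo pools and of 240 sucrose gradient fractions was sequenced. Per the submitters' processing notes, Trim Galore 0.6.7, FastQC, HISAT2 2.2.1, featureCounts 2.0.1 and edgeR were used, with the build GRCm39; the gene annotation is not given in the sources used here. The authors deposited CPM for 15854 symbols in 272 libraries. In 38 columns that CPM adds up to more than 1000000, since symbols with identical values are repeated, and the deposited columns furthest above it are recorded as a signal scaled to the library. One of each group of identical symbols was kept (15771). Every value was a whole number of reads (100% within 0.05 of a read), with 11.2 to 24.3 M reads per transcriptome and 0.0102 to 43.2 M per fraction. Without molecular identifiers, reads are not independent molecules, and the floor of 3 reads per library covers counting error only. The 2-cell transcriptome columns carry the letters E to H and their labels A to D. They entered only as a group, with no pairing.

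The CPM of fractions 6 to 10 and of fractions 1 to 5 were averaged in each gradient, and log2(CPM + 1) was tested with limma 3.58.1 (R 4.3.3, trend) and Benjamini-Hochberg adjustment over all genes with at least 1 CPM in 3 side means, on the stage's own 6 side means, or in 4 libraries, over all 32 transcriptomes. Fold changes on this scale understate changes of low genes. Alternatives were edgeR 4.0.16 and DESeq2 1.42.0 on the recovered reads (without fraction 7 of 2-cell gradient B), a pseudocount of 0.1, no filter, quantile normalization, other fractions, other samples in the fit, libraries under 1000000 reads left out, a gradient block and each replicate left out. The main limma fit kept fraction 7 of 2-cell gradient B, so at that stage edgeR and DESeq2 differed from it in samples as well as in method. Light and heavy sides of a letter come from the same gradient, which pairs them by design. Their deviations from the group means correlated by -0.00196 to 0.0602 at the 2-cell stage and by at most 0.269 at any stage. Only the limma fit of the 2-cell sides was run on simulated reads, drawn without a pairing of light and heavy sides. The other fits were not, and no result here rests on that run. The members and gene lists were chosen with earlier results of these data known. Named are all members, their sums, the parents, the genes of 3 lists, and the 5 genes most like each sum.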

Additional observations from a re-analysis of the deposited data

Results flagged for a closer look

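Among 52 groups of 4 transcriptome libraries (the copies, the sums and the parents by stage), 9 had 1 library far from the other 3, with a gap to the nearest of them that took up most of the range. Chance flags about 1 in 20 groups that are independent. The groups here share libraries and the sums contain their own members, so that rate does not apply to the 9. In 2-cell embryos, 6 of these rest on library E, which was the lowest for Eif1ad3 (758 CPM), Eif1ad7 (1163 CPM) and the summed Eif1ad copies (3565 CPM) and the highest for Eif4a3l1 (329 CPM), the summed Eif4a3l copies (669 CPM) and Eif1ad (54.7 CPM). So in the same library one family was low while the other and the parent were high. Eif1ad16 had its far value, 283 CPM, in 2-cell library H. In 4-cell embryos Eif1ad3 was far higher in library B (15.3 CPM) and Eif1ad8 in library C (4.50 CPM).

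The parents lay on opposite sides of the gradient at different stages, in every one of 3 gradients each, and these differences between stages were not tested. Eif1ad was heavier at the 8-cell stage (0.55 on the log2 scale) and lighter in GV oocytes (-1.57), zygotes (-2.10), 2-cell embryos (-2.66) and blastocysts (-0.31). It was also lighter in all 3 MII gradients (-1.21), at levels of 5.07 CPM or less. Without libraries under 1000000 reads, Eif1ad was heavier in 2 of 3 gradients at the 8-cell stage (0.34), so its opposite sides there rest on such libraries. Eif4a3 was heavier at the 2-cell (0.78), 8-cell (0.80), morula (1.49) and blastocyst stage (1.98) and lighter in GV oocytes (-0.46), MII oocytes (-0.51) and zygotes (-0.71). Without libraries under 1000000 reads it was heavier in 2 of 3 gradients at the 2-cell stage (0.51), and the other 6 of these stages kept their side in all 3 gradients. Leaving those libraries out was chosen after the data had been seen for all stages but the 2-cell and 4-cell.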

How the results depend on the processing

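The 188 genes called between heavy and light at the 2-cell stage became 521 with a pseudocount of 0.1, 0 with no filter, 2627 with all 8 stages in the fit, 119 with the replicate block, 730 for fractions 7 to 10 against 1 to 4, 370 without libraries of low depth, 91 with edgeR, 1390 with DESeq2, and 0 to 0 without any single gradient (2066 to 2209 at an unadjusted p under 0.05). Of 156 values of this comparison, 117 kept direction and side of the threshold, 21 lost a call, 17 gained one and 0 reversed. The difference of the summed Eif1ad copies was 3.94 for fractions 7 to 10 against 1 to 4. At the 4-cell stage 0 calls became 2428 with all 8 stages, 2 with the replicate block, 10 with quantile normalization, 7 for fractions 7 to 10 against 1 to 4, 2 without libraries of low depth and 257 with DESeq2. Eif1ad there turned from -1.17 to 0.76 without gradient A (-2.41 without B), 0.63 with edgeR and 0.53 with DESeq2, and the cause was not tested. The 1610 calls in morulae became 832 with no filter, 895 with all 8 stages, 931 without libraries of low depth, 342 with edgeR, and 41 (without gradient B) to 1064 (without A) with a gradient left out, 270 without C. The block took the call from Eif1ad3 and Eif4a3l1 at the 2-cell stage and from no other copy or parent. No paired analysis was possible for the tested transcriptome changes because both involve the 2-cell stage, whose columns carry other letters than their labels; levels of the other stages were described without a test. With 3 gradients a stage, the number of gradients limits the precision of every such test.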
